A study of Mus musculus with 6 samples.

Results

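The Cyp2c genes encode a subfamily of cytochromes P450, heme enzymes of the endoplasmic reticulum that are best known in liver for oxidising drugs, steroids and polyunsaturated fatty acids. They take electrons from the reductase Por and from cytochrome b5, and several of them turn arachidonic acid into epoxides, which epoxide hydrolases then open to diols. Their transcription in hepatocytes is known to depend on HNF4A, C/EBP factors and the xenobiotic receptors CAR (Nr1i3) and PXR (Nr1i2), and inflammation is known to lower many hepatic P450 messages. The set described here holds 10 genes chosen by name, Cyp2c29, Cyp2c37, Cyp2c38, Cyp2c39, Cyp2c40, Cyp2c44, Cyp2c50, Cyp2c54, Cyp2c67 and Cyp2c68, of 22488 rows in each count table. For 9 of them the row carried the symbol itself. Cyp2c44 stood under its other symbol, Cyp2c23, and was matched by its Entrez identifier, 226143, for which RefSeq lists Cyp2c44 as a synonym. The files held 5 more Cyp2c genes, which are used for comparison.

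RNA from livers of wild-type male C57BL/6 mice of 6 to 8 weeks was sequenced, with 3 control and 3 LPS libraries. All animals had been fasted for 16 h, so both groups share that state. Controls received 200 µl of the salt buffer HBSS into the abdominal cavity, although another label field of the same samples reads no treatment, and LPS animals received the bacterial endotoxin lipopolysaccharide at 6 mg/kg by that route. How long after injection livers were taken is not stated in the labels. Nor do they say whether the libraries of a group came from separate animals, and the spread behind each p value is that of these libraries, which may be technical. Total counts ran from 11488525 to 20282004 per library. Of the genes with 1 to 20 counts in a library, 89.1% to 90.8% had an even count, as arises where both mates of a read pair are counted, so the counts overstate the number of independent fragments. Levels are CPM, read counts normalised to the scaled library total. Changes are log2 ratios of LPS to control, given with a standard error (SE). A gene is said to have fallen or risen where its Benjamini-Hochberg adjusted p from edgeR's quasi-likelihood test over all 12078 tested genes was below 0.05.

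Most of the Cyp2c set fell in LPS livers, by very different amounts. Of the 10 genes, all of which passed the filter on low counts, 8 fell and 0 rose, where 31.0% of all tested genes fell and 31.3% rose. The 8 include Cyp2c39, with 2, 0 and 2 counts in LPS replicates 1, 2 and 3. This gene passed the filter only through the control libraries, so a fall was the only call open to it. Cyp2c40 and Cyp2c67 did not pass the threshold. The 10 genes were chosen with earlier results of these data known, so this count only describes them. Cyp2c70, a gene of the same cluster outside the set, rose (log2 fold change 3.86). The fitted log2 fold changes ran from -5.004 for Cyp2c39 to -0.21 for Cyp2c67, with a median of -1.19, beside a median of 0.013 over all tested genes. In 8 genes every LPS library lay below every control library, which held for 33.4% of all tested genes, and in 0 genes did every LPS library lie above every control library (34.0% of all tested genes). The summed CPM of the 10 genes went from 1885 ± 141 to 1104 ± 82.7 (SD, n = 3 each), that is to 58.6% of the control level. In whole liver, fewer hepatocytes and less RNA per hepatocyte cannot be told apart.

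All 10 genes lie on chromosome 19 (RefSeq, GRCm38.p6). Cyp2c29 to Cyp2c50 belong to a cluster of Cyp2c genes that spans 1.18 megabases, and Cyp2c44 (44005022 to 44029256) lies 3.82 megabases beyond its end. Coding sequences from GENCODE M21 were 59.4% to 97.2% identical over the 45 pairs of the set. They fell into 3 groups of close paralogs, Cyp2c29 with Cyp2c38 and Cyp2c39, Cyp2c37 with Cyp2c50 and Cyp2c54, and Cyp2c40 with Cyp2c67 and Cyp2c68. Cyp2c44 stood alone, with at most 64.9% identity to any other member. Because a short read can match several paralogs, the share of 50-base stretches of each transcript that also occur in a transcript of another gene was counted. This share was 0.0% for Cyp2c44, 2.1% for Cyp2c29, 7.4% for Cyp2c38 and 12.0% for Cyp2c39. It was 25.7% for Cyp2c54, 30.1% for Cyp2c37 and 30.7% for Cyp2c50, and it reached 43.3% for Cyp2c68, 52.8% for Cyp2c67 and 72.1% for Cyp2c40. With stretches of 100 bases it was 0.0% for Cyp2c29, Cyp2c38, Cyp2c39 and Cyp2c44 and 44.1% for Cyp2c40. The labels state neither the read length nor the treatment of reads with several matches, so the split of counts within the Cyp2c37 and Cyp2c40 groups is less certain than that of Cyp2c29 and Cyp2c44.

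**Figure D1:**
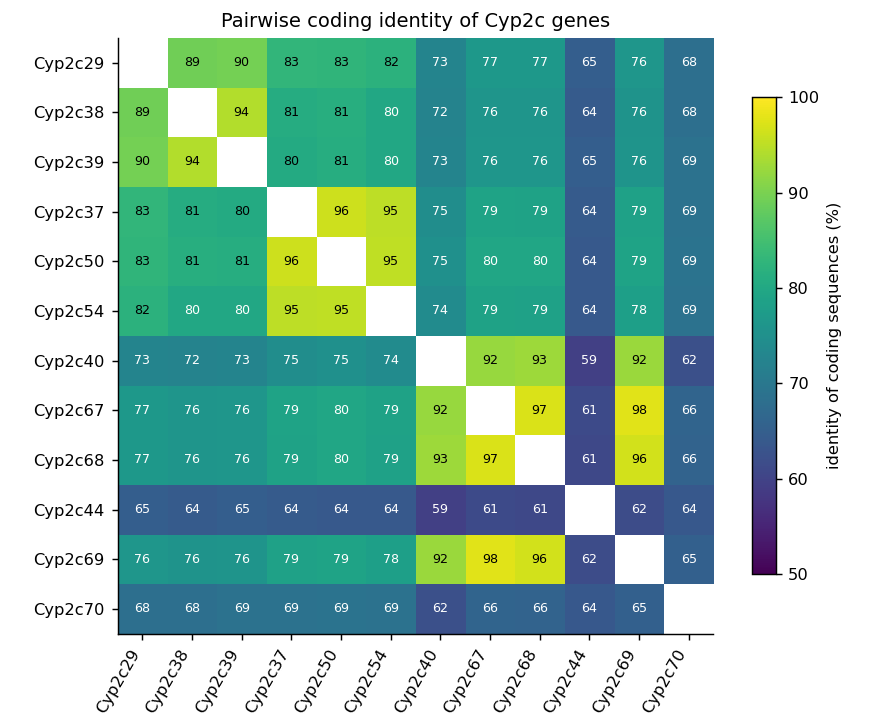
Percent identity of the coding sequences of the 10 Cyp2c genes and of Cyp2c69 and Cyp2c70, by global alignment, with each cell giving a pair and the colour scale running from 50 to 100%. Blocks of high identity mark the 3 paralog groups, with 97.2% between Cyp2c67 and Cyp2c68, while Cyp2c44 and Cyp2c70 stay below 70% to every member.

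The upstream sequences of the set shared a short motif. The table of RefSeq promoters held 8 of the 10 genes, and the 250 bases before each annotated start were searched on both strands for 7 motifs chosen after the fold changes were known. CAAAGT, the core of the HNF4 recognition sequence, occurred in 8 of these 8 genes, against 12.6% of 32536 distinct upstream windows of the same length over all genes. The longer HNF4 form CAAAGTCCA, which contains that core, occurred in Cyp2c40, Cyp2c67 and Cyp2c68, and in 0.4% of all windows. Outside the set it also stood in Cyp2c65, Cyp2c69 and Cyp2c70. The C/EBP form TTGCNNAA occurred in 2 of the 8 (9.6% of all windows) and the TATA box TATAAA in 3 (12.3%). The forkhead core TGTTTGC (4.3%) and a form each of the HNF1 (0.4%) and NF-kB (1.4%) motifs occurred in 0 of the 8, which says nothing about those factors. The paralogs share ancestry, so their windows are not independent, and a match of letters is not a measured binding site. Neither form is particular to the set, since CAAAGT stood in 12 of the 13 Cyp2c genes that have a window. Cyp2c70, a relative from the same cluster that rose with LPS, also held CAAAGT, and Cyp2c40 and Cyp2c67, which did not pass the threshold, held it as well. The windows below show the core in capitals with 20 bases on each side, 5′ to 3′ on the gene's strand, for the 8 genes and for Cyp2c70.
Cyp2c29 (chr19:39286956-39287001, plus strand): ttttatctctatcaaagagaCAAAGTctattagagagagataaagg
Cyp2c38 (chr19:39463161-39463206, minus strand): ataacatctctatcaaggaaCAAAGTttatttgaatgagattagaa
Cyp2c39 (chr19:39510716-39510761, plus strand): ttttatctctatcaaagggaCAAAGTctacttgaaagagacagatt
Cyp2c37 (chr19:39992288-39992333, plus strand): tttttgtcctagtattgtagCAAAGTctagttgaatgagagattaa
Cyp2c50 (chr19:40089598-40089643, plus strand): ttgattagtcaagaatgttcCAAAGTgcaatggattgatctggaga
Cyp2c40 (chr19:39812834-39812879, minus strand): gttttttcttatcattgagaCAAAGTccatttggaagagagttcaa
Cyp2c67 (chr19:39649142-39649187, minus strand): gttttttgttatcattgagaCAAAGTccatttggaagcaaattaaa
Cyp2c68 (chr19:39741153-39741198, minus strand): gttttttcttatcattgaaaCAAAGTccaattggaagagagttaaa
Cyp2c70 (chr19:40187325-40187370, minus strand): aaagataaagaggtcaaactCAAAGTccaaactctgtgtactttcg

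The core began at -109 relative to the annotated start in Cyp2c29, at -111 in Cyp2c38, at -86 in Cyp2c39, at -116 in Cyp2c37, at -61 in Cyp2c50 and at -64 in Cyp2c70 for the windows shown. In the Cyp2c40 group it began at -45 in Cyp2c40, -125 in Cyp2c67 and -77 in Cyp2c68, where the flanks are nearly the same and the annotated starts differ. Cyp2c37 held 3 matches, Cyp2c39 held 1 in each of its 2 annotated windows, and Cyp2c29 and Cyp2c70 held 2 each. Over the whole upstream window Cyp2c37 and Cyp2c50 were 84.3% identical and Cyp2c67 and Cyp2c68 63.1%.

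The Cyp2c29 group holds both the most abundant member and the members that fell most. Cyp2c29 (39287044 to 39330713), a major hepatic P450 that makes arachidonic acid epoxides and is known as a CAR target, had 511, 562 and 479 CPM in control replicates 1, 2 and 3 and 436, 360 and 447 CPM in LPS replicates 1, 2 and 3. The groups did not overlap, but the gap between the lowest control and the highest LPS library was small beside the spread. Its log2 fold change was -0.32 (SE 0.13, 95% interval -0.61 to -0.04, adjusted p = 0.0483). Leaving out control replicate 1 ended that call (-0.33, adjusted p = 0.0680), and so did leaving out control replicate 2 (-0.28, adjusted p = 0.114). The value was smallest once LPS replicate 2 was dropped (-0.22, adjusted p = 0.215). With the replicate number as a block it stood at -0.32 (adjusted p = 0.0526).

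Cyp2c38 (39389556 to 39463103), another arachidonic acid epoxygenase, had 22.9, 28.5 and 40.1 CPM in control livers and 4.09, 3.30 and 2.50 CPM in LPS livers, in replicate order. The lowest control library was more than 5 times the highest LPS library (22.9 against 4.09 CPM). The mean LPS level was 10.8% of the control level, a log2 fold change of -3.22 (SE of 0.25, adjusted p = 8.473e-08). Cyp2c39 (39347346 to 39569568), which is known to oxidise retinoic acid, was the least abundant member, with 19, 70 and 86 counts in control replicates 1, 2 and 3 and 2, 0 and 2 in LPS replicates 1, 2 and 3. It fell by 5.004 on the log2 scale (SE 0.76, adjusted p = 6.306e-05). It passed the filter on low counts only through the control libraries, so a fall was the only call open to it. The size of this fall is loosely held, with a 95% interval from -6.64 to -3.37, and it moved to -4.41 without LPS replicate 2, the library at 0. The RefSeq span of Cyp2c39 overlaps that of Cyp2c38, and the labels do not say whether counting used strand.

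The Cyp2c37 group fell together. Cyp2c50 (40089679 to 40113955), the second most abundant member and an arachidonic acid epoxygenase, had 439, 508 and 473 CPM in control and 213, 184 and 226 CPM in LPS replicates 1, 2 and 3. Every LPS library was below every control library by more than 200 CPM (439 against 226). Its log2 fold change was -1.19 (SE 0.13, adjusted p = 2.921e-06). Cyp2c37 (39992424 to 40012243), known for hydroxylating arachidonic acid, had 163, 180 and 188 CPM in control and 72.6, 67.4 and 93.7 CPM in LPS livers. Its fall was the same size, -1.19 (SE 0.14, adjusted p = 6.975e-06), and the ratio of Cyp2c37 to Cyp2c50 counts was 0.355 to 0.397 in control and 0.340 to 0.414 in LPS libraries. Cyp2c54 (40037939 to 40073845), a further epoxygenase, went from 160, 177 and 196 CPM to 58.5, 54.9 and 67.7 CPM. This was a fall by 1.55 on the log2 scale (SE 0.13, adjusted p = 2.518e-07). The ratio of Cyp2c37 to Cyp2c54 counts was 0.961 to 1.02 in control and 1.23 to 1.38 in LPS libraries, without overlap, and that of Cyp2c50 to Cyp2c54 was 2.42 to 2.88 and 3.34 to 3.65. With the counts of the 3 genes summed, so that reads shared among them cannot move between genes, the group went from 834 ± 62.6 to 344 ± 34.5 CPM (-1.28, SE 0.13, adjusted p = 1.239e-06).

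**Figure D2:**
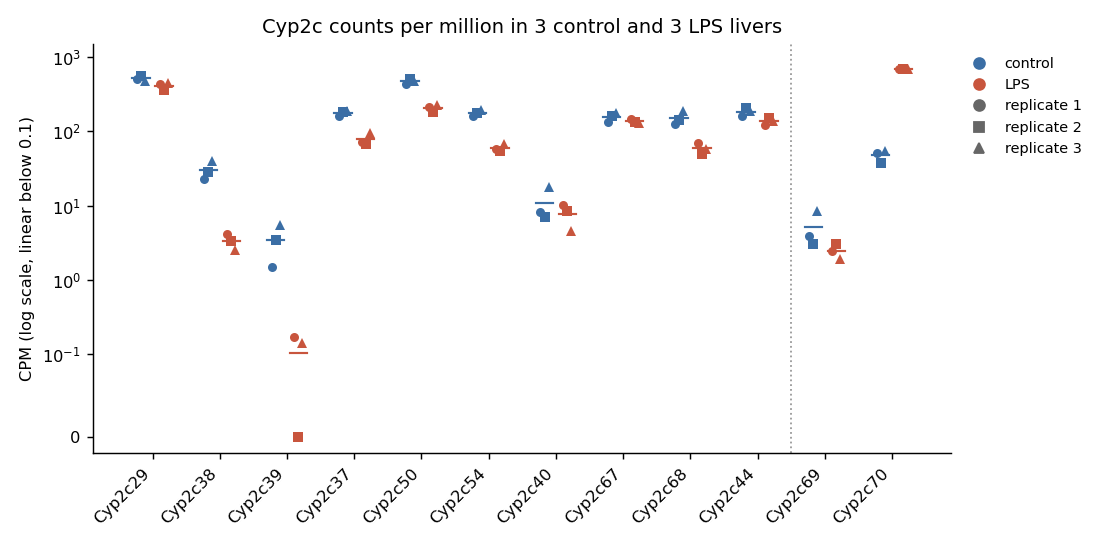
CPM of each Cyp2c gene in every library (vertical axis logarithmic above 0.1 and linear below), with control in blue, LPS in red, symbol shape for the replicate number and a short line for the group mean. LPS points lie below all control points in 8 of the 10 genes left of the dotted line, overlap them in Cyp2c40 and Cyp2c67, and lie far above them in Cyp2c70.

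The Cyp2c40 group split. Cyp2c68 (39688836 to 39741101) had 124, 144 and 186 CPM in control replicates 1, 2 and 3 and 70.1, 48.9 and 58.5 CPM in LPS replicates 1, 2 and 3, without overlap, and fell by 1.36 on the log2 scale (SE 0.17, adjusted p = 1.038e-05). Its close paralog Cyp2c67 (39608844 to 39649079) had 134, 161 and 179 CPM in control and 148, 134 and 129 CPM in LPS livers. These groups overlapped, and the log2 fold change was -0.21 (SE 0.13, adjusted p = 0.192) with a 95% interval from -0.49 to 0.08, so a fall of the size seen in Cyp2c68 lies outside the interval. Cyp2c40 (39767073 to 39812814), which is known to hydroxylate arachidonic acid, was sparse, with 8.34, 7.01 and 17.7 CPM in control and 10.3, 8.58 and 4.56 CPM in LPS livers. Its log2 fold change was -0.50 (SE 0.35, adjusted p = 0.231), and it was 0.011 without control replicate 3, the highest of the controls, where its sign changed. Summed with Cyp2c69, its near-identical neighbour outside the set, the group of 4 genes went from 328 ± 64.3 to 205 ± 22.5 CPM (-0.68, SE 0.15, adjusted p = 0.00135).

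Cyp2c67 and Cyp2c68 moved apart although their coding sequences differ at 42 of 1476 bases. The ratio of Cyp2c67 to Cyp2c68 counts was 1.08, 1.11 and 0.961 in control replicates 1, 2 and 3 and 2.11, 2.74 and 2.21 in LPS replicates 1, 2 and 3. Library size cancels in this ratio, and every LPS ratio exceeded every control ratio. Of the 9 pairs of members within paralog groups, 5 had ratios that did not overlap between the groups of livers, and an exact 2-sided permutation test gave p = 0.1 for each of these 5 (0.18 after Benjamini-Hochberg adjustment over the 9), where 0.1 is the smallest value that 3 against 3 libraries can give. The share of non-overlapping ratios among pairs of other genes was not computed, and several pairs reuse a gene. Nothing is therefore read from the count of 5. The longest stretch without a difference between Cyp2c67 and Cyp2c68 was 149 bases, so reads within it cannot tell them apart, and how such reads were assigned was not tested. The stretch of coding sequence with most differences, bases 1060 to 1119 counted from the start codon, is shown with the 8 differing bases in capitals.
Cyp2c67: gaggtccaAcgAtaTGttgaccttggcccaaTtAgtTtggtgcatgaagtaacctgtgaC
Cyp2c68: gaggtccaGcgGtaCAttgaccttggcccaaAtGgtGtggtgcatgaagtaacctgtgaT

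Cyp2c44, the member outside the cluster and an arachidonic acid epoxygenase also studied in kidney and vessels, fell modestly. It had 160, 209 and 185 CPM in control replicates 1, 2 and 3 and 121, 150 and 138 CPM in LPS replicates 1, 2 and 3. The lowest control library (160 CPM) and the highest LPS library (150 CPM) lay close together. The log2 fold change was -0.44 (SE 0.14, adjusted p = 0.0122), and the call ended without LPS replicate 1 (-0.38, adjusted p = 0.0521).

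**Figure D3:**
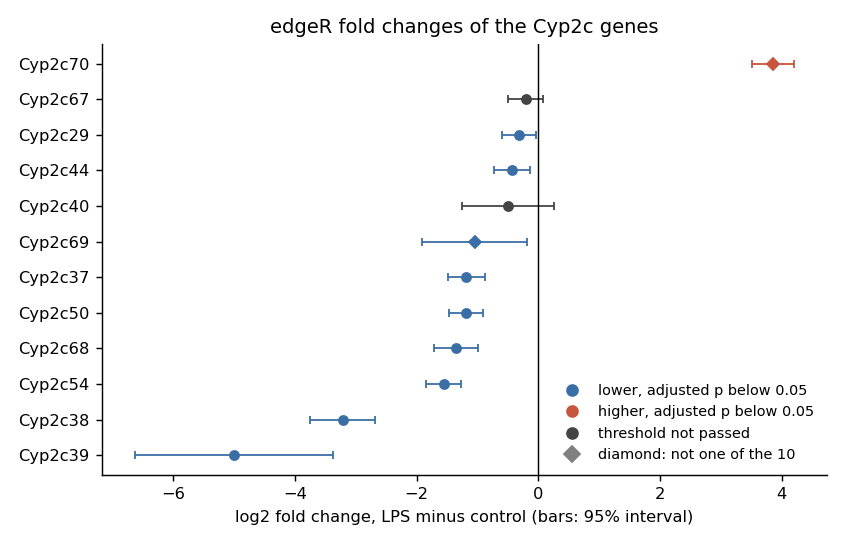
Fitted log2 fold changes (horizontal axis, LPS minus control) of the 10 Cyp2c genes as circles and of Cyp2c69 and Cyp2c70 as diamonds, with 95% intervals from edgeR and colour for the call. The intervals of Cyp2c38 and Cyp2c39 lie wholly below -2.6, those of Cyp2c67 and Cyp2c40 include 0, and Cyp2c70 stands at 3.86.

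The mean shares of the 10 genes in their summed counts differed between control and LPS libraries. As a share of the counts of the 10 genes, Cyp2c29 went from 27.5% ± 2.64 to 37.4% ± 1.61, Cyp2c67 from 8.36% ± 0.739 to 12.4% ± 1.19 and Cyp2c44 from 9.77% ± 0.669 to 12.4% ± 2.15 (SD, n = 3 each). Cyp2c50 went from 25.1% ± 0.762 to 18.8% ± 0.567 and Cyp2c54 from 9.41% ± 0.570 to 5.46% ± 0.318. Shares were higher in every LPS library for 3 genes, lower in every LPS library for 6 and overlapping for Cyp2c40, and each of the 9 gave an exact permutation p of 0.1, the smallest possible (0.111 after adjustment over the 10). Shares of a fixed sum are tied together, so deeper falls of some members raise the shares of others whose own CPM did not rise. No such count was made for other genes, and nothing is read from these counts of shares.

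Levels of different genes were compared as CPM per kilobase of transcript. In control livers Cyp2c29 (290 ± 23.6) and Cyp2c50 (261 ± 19.01) led, with overlapping libraries, and stood clear of the next gene. Cyp2c54 (99.3 ± 10.1), Cyp2c37 (97.2 ± 7.02), Cyp2c44 (96.4 ± 12.7), Cyp2c67 (91.2 ± 13.2) and Cyp2c68 (87.9 ± 18.4) followed, and neighbours in this run overlapped. Cyp2c38 (10.6 ± 3.06), Cyp2c40 (6.11 ± 3.23) and Cyp2c39 (1.91 ± 1.11) were lowest, with Cyp2c38 and Cyp2c40 overlapping. In LPS livers Cyp2c29 (232 ± 26.7) stood alone at the top, then Cyp2c50 (115 ± 11.8), and Cyp2c67 (79.1 ± 5.596) and Cyp2c44 (71.2 ± 7.61) came next with overlapping libraries. Cyp2c37 (42.7 ± 7.64), Cyp2c68 (34.3 ± 6.17) and Cyp2c54 (33.8 ± 3.68) formed the following run, in which neighbours overlapped. By mean level, Cyp2c54 thus went from rank 3 to rank 7 and Cyp2c67 from rank 6 to rank 3 among the 10. Their control libraries overlapped each other, so their order in control livers is not settled. Within the control group the highest library was replicate 3 for 7 members and replicate 2 for 3, and within the LPS group it was replicate 1 for 5, replicate 3 for 4 and replicate 2 for 1.

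The 5 Cyp2c genes outside the set included a gene with the opposite change. Cyp2c70 (40153361 to 40187286), which makes muricholic bile acids, had 50.5, 37.8 and 55.0 CPM in control replicates 1, 2 and 3 and 699, 700 and 683 CPM in LPS replicates 1, 2 and 3. Its libraries agreed closely within each group and differed 14.5-fold between them (log2 fold change 3.86, SE 0.16, adjusted p = 3.209e-10). None of its 50-base stretches occurred in a transcript of another gene (0.0%), and its coding sequence was at most 69.1% identical to that of a member. Cyp2c70 took 1.87% to 2.84% of the summed CPM of all Cyp2c genes in control libraries and 36.9% to 40.8% in LPS libraries. The sum over all Cyp2c genes therefore changed little, from 1939 ± 139 to 1802 ± 75.7 CPM, while that of the 10 genes fell. Cyp2c69 (39842660 to 39886769) had 50, 62 and 133 counts in control and 29, 43 and 27 in LPS libraries. It fell by 1.05 on the log2 scale (SE 0.40, adjusted p = 0.0338), although the groups overlapped. Dropping control replicate 3 (-0.49), LPS replicate 1 (-1.07) or LPS replicate 3 (-0.89) ended this call. So did the replicate block (-0.93). In sequence, 54.8% of its 50-base stretches occur in other genes. The intestinal gene Cyp2c55 had 8 to 14 counts per library and did not pass the threshold (0.39, SE 0.55, adjusted p = 0.555). Cyp2c65 had 8 counts in control replicate 2 and 0 in the other libraries, and Cyp2c66 had 0 counts throughout.

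**Figure D4:**
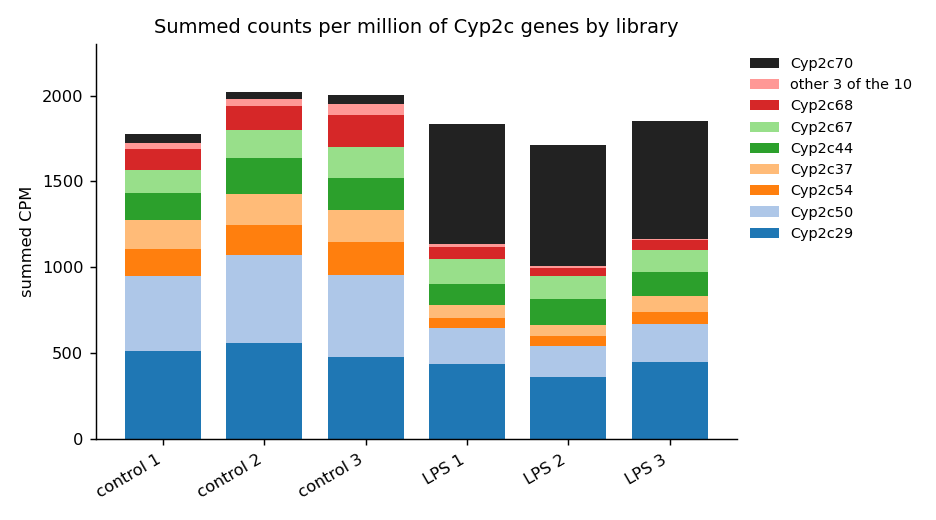
Summed CPM (vertical axis, from 0) in each of the 6 libraries, stacked by gene, with Cyp2c38, Cyp2c39 and Cyp2c40 drawn together and Cyp2c70 in black; Cyp2c55, Cyp2c65 and Cyp2c69 are left out. The coloured part shrinks from 1724 to 1980 CPM in control to 1011 to 1168 CPM in LPS livers, while Cyp2c70 goes from 37.8 to 55.0 CPM to 683 to 700 CPM.

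Genes that serve P450 catalysis fell as well. Of 6 electron donors and membrane partners, 5 fell and 0 rose, with a median of -0.69, where 31.0% of all tested genes fell and 31.3% rose. Por, the obligate reductase of microsomal P450s, went from 481 ± 52.0 to 303 ± 58.7 CPM (-0.67, SE 0.15, adjusted p = 0.00173). Cytochrome b5, Cyb5a, went from 817 ± 46.6 to 425 ± 43.7 CPM (-0.94, SE 0.13), and Cyb5b (-1.05) and the P450-binding protein Pgrmc1 (-0.71) fell too. Of 12 genes of heme supply and breakdown, 8 fell and 4 rose, and the share that rose is near the 31.3% of all tested genes (31.0% fell). Alas1, the rate-limiting step of heme synthesis, rose from 607 ± 109 to 1739 ± 105 CPM (1.52, SE 0.15), and Hmox1, which degrades heme, rose from 18.7 ± 1.28 to 48.2 ± 6.63 CPM (1.37, SE 0.14). The later synthesis enzymes Alad (-2.03) and Cpox (-2.69) fell, as did the biliverdin reductase Blvrb (-1.81). Dropping control replicate 2, control replicate 3 or LPS replicate 3 left 2 risers.

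The transcription factors known to act on Cyp2c genes, listed with their partners, mostly fell. Of 19 tested, 13 fell and 2 rose, with a median of -0.52, beside 31.0% and 31.3% of all tested genes. With a library left out, 9 to 12 of the list fell. The xenobiotic receptor CAR, Nr1i3, went from 30.8 ± 6.93 to 1.57 ± 0.932 CPM (-4.27, SE 0.30, adjusted p = 4.141e-08, and -4.86 without LPS replicate 3). PXR, Nr1i2, went from 93.0 ± 1.01 to 34.6 ± 1.81 CPM (-1.43, SE 0.12). The bile acid receptor Nr1h4 fell (-1.33, SE 0.12), and Hnf4a went from 652 ± 7.37 to 453 ± 94.1 CPM (-0.52, SE 0.15, adjusted p = 0.00717). Whether changes of these factors bear on the Cyp2c genes was not tested. Cebpb, a C/EBP factor of the acute phase, rose from 138 ± 19.3 to 295 ± 55.6 CPM (1.10, SE 0.16). Cebpa, the C/EBP factor of mature hepatocytes, named after its value was seen, fell from 341 ± 17.5 to 124 ± 20.2 CPM (-1.46, SE 0.14). Growth hormone signalling, which sets the sex pattern of several hepatic P450 genes, had 4 of 10 tested genes lower and 2 higher, close to the 31.0% and 31.3% of all tested genes, so these counts do not set the list apart. The receptor Ghr (-1.16), Stat5b (-0.78), the IGF-binding subunit Igfals (-2.68) and Igf1 (-0.37) fell, and the feedback inhibitor Socs2 rose from 14.7 ± 5.15 to 153 ± 27.2 CPM (3.36, SE 0.22). The call of Igf1 ended without control replicate 1 (-0.33) or LPS replicate 2 (-0.34).

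Enzymes that share substrates or products with the Cyp2c proteins mostly fell. Of 14 tested genes of the arachidonic acid pathway, 10 fell and 2 rose, with a median of -1.78 (31.0% of all tested genes fell and 31.3% rose). Ephx2, the soluble epoxide hydrolase that removes P450-derived epoxides, went from 2022 ± 7.88 to 447 ± 53.8 CPM (-2.18, SE 0.14), and the microsomal hydrolase Ephx1 from 521 ± 40.1 to 91.3 ± 14.8 CPM (-2.51, SE 0.15). The fatty acid hydroxylases Cyp4a14 (-8.24) and Cyp4a10 (-5.71) fell most in this list. Its 2 risers, named after their values were seen, were the cyclooxygenase Ptgs2, which went from 0.0324 to 1.58 CPM, and the lipoxygenase Alox5, which went from 0.0844 to 1.26 CPM. Both passed the filter on low counts only through the LPS libraries, so a rise was the only call open to them. Without LPS replicate 3, 1 of the list rose. Of 12 genes of retinoid metabolism, 10 fell, against 31.0% of all tested genes, with a median of -2.10. They include Cyp26a1 (LPS mean 0.0569 CPM), named after its value was seen. Cyp26a1 passed the filter on low counts only through the control libraries, so a fall was the only call open to it. Rdh16, a retinol dehydrogenase, went from 197 ± 24.8 to 16.9 ± 1.94 CPM (-3.55, SE 0.15), and the retinaldehyde dehydrogenase Aldh1a1 (-2.60), the retinol saturase Retsat (-3.01) and the plasma carrier Rbp4 (-1.90) fell.

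Other xenobiotic P450s fell by a similar median. Of 20 tested, 16 fell and 3 rose (31.0% and 31.3% of all tested genes), with a median of -1.24, against -1.19 for the 10 Cyp2c genes. The difference between these medians was not tested. The fallers include Cyp3a16 (LPS mean 0.284 CPM) and Cyp3a44 (0.331), named after their values were seen. Both passed the filter on low counts only through the control libraries, so a fall was the only call open to them. Cyp2e1, the most abundant, went from 7421 ± 566 to 3197 ± 155 CPM (-1.22, SE 0.14), Cyp3a11 from 3097 ± 397 to 701 ± 88.8 CPM (-2.14, SE 0.15), Cyp3a25 from 683 ± 86.3 to 59.98 ± 2.89 CPM (-3.51, SE 0.14) and Cyp2f2 from 644 ± 34.5 to 179 ± 44.2 CPM (-1.85, SE 0.16). The 3 risers, named after their values were seen, were Cyp2a5 (1.10), Cyp2d40 (0.76) and Cyp1a2 (0.45).

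**Figure D5:**
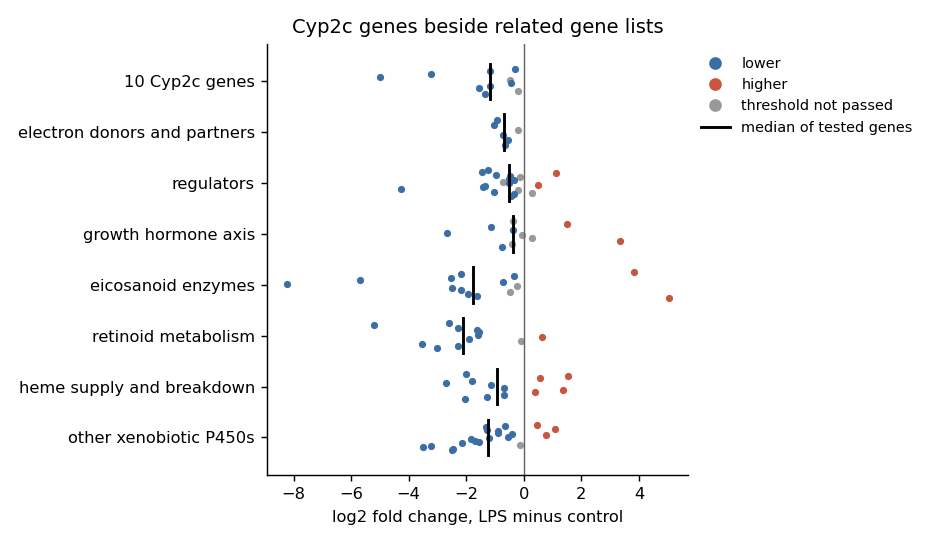
Log2 fold changes (horizontal axis, LPS minus control) of the tested genes of each list, a point per gene, in blue where lower, red where higher and grey where the threshold was not passed, with a black bar at the median. The 10 Cyp2c genes, median -1.19, lie near the other xenobiotic P450s, median -1.24, and above the lists of retinoid metabolism (-2.10) and arachidonic acid enzymes (-1.78).

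Over the 6 libraries, the genes whose log2 CPM followed the mean log2 CPM of the 10 most closely were Net1 (Pearson r = 0.999), Nat8f2 (0.998) and Mogs (0.997), of 7429 genes with a mean of at least 10 CPM. These correlations describe 6 libraries that form 2 groups, and 28 genes exceeded 0.99. Net1, a guanine nucleotide exchange factor, had 60.1, 69.2 and 78.2 CPM in control and 39.1, 35.2 and 37.9 CPM in LPS livers.

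Markers of hepatocytes, in which these P450s are made, were abundant in all libraries and moved too. Of 14 tested hepatocyte markers, 11 fell and 2 rose, with a median of -0.66, where 31.0% of all tested genes fell and 31.3% rose. Their summed level ran from 125713 to 138402 CPM in control and from 77225 to 104883 CPM in LPS libraries. Of 9 Kupffer cell markers 8 fell and 1 rose (summed 315 to 356 against 77.0 to 126 CPM). Of 11 neutrophil markers 8 were tested, and these 8 rose (summed 4.52 to 7.83 against 203 to 248 CPM). The 8 include Ngp (control mean 0.160 CPM), Mmp8 (0.0844), Camp (0.0947) and Cxcr2 (0.127), which passed the filter on low counts only through the LPS libraries. A rise was the only call open to such genes, so nothing is read from this count. Of the monocyte markers 5 of 7 were higher and 1 lower, and of the biliary markers 3 of 4 were higher and 1 lower. The monocyte markers Ly6c2 (control mean 0.363 CPM), Itgam (0.429) and Chil3 (0.309) also passed the filter only through the LPS libraries. The biliary marker Krt19 (LPS mean 0.292 CPM), which fell, passed it only through the control libraries. Nothing is read from the monocyte and biliary counts either. Lymphocyte markers (2 of 6 lower, 0 higher), endothelial markers (4 of 8 lower, 2 higher) and stellate markers (5 of 9 lower, 1 higher) had counts from which nothing is read beside those shares of all genes. In summed CPM the lists other than that of hepatocytes stayed below 400 in every library. The part of the marker changes in the falls of the Cyp2c genes was not tested.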

How the data were processed

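The authors deposited raw counts per gene, 1 table per library, with a symbol and an Entrez identifier in fields of 8 characters. The submitters' processing notes name bcl2fastq 2.0, HISAT2, StringTie, DESeq2, limma and the build mm10. The labels and notes do not state the counting tool, annotation, strand setting or handling of multiply mapping reads. Rows were named through RefSeq (GRCm38.p6), 20722 of 22488 by Entrez identifier.

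Counts were compared in R 4.3.3 with edgeR 4.0.16 (TMM scaling, filterByExpr with minimum count 10 and total 15, quasi-likelihood F test, 2-sided, Benjamini-Hochberg adjustment, threshold 0.05), and with DESeq2 1.42.0 as an alternative. The sample titles number the libraries of each group as repeat experiments, without saying whether equal numbers pair livers. The main fit therefore used no block. Same-numbered control and LPS libraries correlated at -7.448e-04, 0.104 and 0.0352 after group means were removed. No libraries of a group were duplicates (chi-square per degree of freedom 12.3 to 33.1).

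Named were the 10 genes, other Cyp2c genes, and per list the 3 genes with the smallest adjusted p, the most abundant and some fixed by name. The 10 genes and the lists were chosen with earlier results of these data known. Of 8 transcripts listed as signs of RNA quality, 0 had a row. Protein identity was planned, but coding sequences were used instead. They were aligned with Biopython 1.88. Any rise within the retinoid list is not reported by gene here.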

Additional observations from a re-analysis of the deposited data

How the results depend on the processing

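Of the 10 Cyp2c genes, 8 were lower and 0 higher with DESeq2, with library totals as the only scaling and without a filter on low counts, and also with counts halved, an alternative chosen after seeing the data. With the replicate block 7 were lower, since Cyp2c29 stood at -0.32 and missed the threshold. The block ended no other member's call. With a library left out 7 or 8 were lower. Cyp2c29 then ran from -0.39 to -0.22, Cyp2c44 from -0.53 to -0.37, Cyp2c40 from -0.77 to 0.011 and the summed Cyp2c29 group from -0.46 to -0.31, whose call ended without LPS replicate 2. With paralogs summed, 4 of 4 features were lower. The summed Cyp2c40 group, which includes Cyp2c68, stood at -0.68 past the threshold. That value is no call for Cyp2c40 or Cyp2c67 alone. Arachidonic acid genes that rose numbered 0 with halved counts, where fewer were tested, and 1 to 2 with a library left out. Risers then numbered 0 to 1 for retinoid metabolism and 2 to 4 for heme. The cause was not tested. The median over all genes was 0.013 with TMM and -0.055 with library totals. Depth limits Cyp2c39, whose LPS libraries hold 4 counts in all.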
